A study of Homo sapiens with 18 samples.

Results

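The Fanconi anaemia and homologous recombination genes were followed through RNA sequencing of 2 bladder cancer (BLCA) cell lines in which ACAT1 was knocked down. The set held 33 genes of the 39496 in the deposited tables, chosen by name with earlier results of these data known. All 33 were found, and all 33 were among the 20144 genes that passed the filter on low counts. UM-UC-3 and T24 are established human lines of transitional cell cancer of the bladder. Each line was transfected with siNC, a control siRNA (genotype labelled WT), or with siACAT1-1 or siACAT1-2, which target ACAT1 (genotype labelled ACAT1 knockdown), with 3 libraries in each of the 6 groups. UM-UC-3 cells were kept in MEM and T24 cells in RPMI-1640, so the line and its medium cannot be told apart. The knockdown was transient and was delivered with a Lipofectamine reagent, which the siNC cells received as well. The libraries of a group are labelled as biological replicates 1 to 3, and the sources used here do not say whether a number marks a day, a passage or a transfection.

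The Fanconi pathway repairs crosslinks between the strands of DNA. A core complex of FANCA, FANCB, FANCC, FANCE, FANCF, FANCG, FANCL and FANCM, with the conjugating enzyme UBE2T, attaches ubiquitin to FANCD2 and FANCI, and USP1 takes it off again. The cut that follows is rebuilt by homologous recombination: RBBP8 and EXO1 trim the broken ends, BRCA1 with BARD1, PALB2 and BRCA2 prepare them for the search for a matching strand, and RAD51C, RAD51D, XRCC2, XRCC3, RAD51AP1, RAD54L and RAD54B assist the exchange of strands. Many of these genes are transcribed most in S phase through E2F factors, and loss of the pathway is known to make tumours sensitive to platinum drugs, which are used against bladder cancer.

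ACAT1, the mitochondrial acetyl-CoA acetyltransferase targeted in the study, was reduced in every knockdown library. Its RPKM (reads scaled to gene length and to the total of counted reads) was between 44.2 and 47.4 in UM-UC-3 siNC, between 1.83 and 3.60 in the 6 UM-UC-3 knockdown libraries, between 14.6 and 17.1 in T24 siNC and between 0.671 and 1.46 in the 6 T24 knockdown libraries. The libraries held 25163490 to 34417230 counted reads. Markers of leukocytes and endothelium were nearly absent, with summed levels of at most 0.188 and 0.113 RPKM in any library. Of 14 urothelial markers in the table, KRT5, UPK1B, UPK3A and CDH1 were under 0.1 RPKM in every library of both lines, and the summed level of the list was 130 to 211 RPKM in UM-UC-3 and 302 to 1101 RPKM in T24.

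The 33 genes spanned a wide range of levels. USP1, the FANCD2 deubiquitinase, was the highest on the per-length scale, with a mean of 35.8 RPKM over the 18 libraries, followed by UBE2T at 32.6 RPKM and the mismatch repair gene MSH6 at 20.0 RPKM. FANCF, a core complex adaptor, was the lowest at 0.701 RPKM, and FANCB, FANCC and RAD51D lay close to it at 0.908, 1.02 and 0.945 RPKM. The lowest count behind any value was 27 reads, for FANCB in a UM-UC-3 siACAT1-2 library, and FANCF had 28 to 230 reads per library, so these 2 genes carried the largest counting error. For some members exons overlap another gene in the exon coordinates deposited with the counts. The strand setting of the counting is not given in the sources used here. XRCC3 shared 76.7% of its exonic bases with KLC1 on the other strand, and RAD54B 51.3% with FSBP on the same strand. RAD54L shared 25.1% with LRRC41, FANCA 23.6% with ZNF276 and FANCL 18.7% with VRK2. EME1 shared 16.4% with LRRC59, ATR 16.4% with RP11-383G6.4 and MSH6 16.2% with FBXO11, each on the other strand. Their values are less certain for that reason. FANCE, FANCG, USP1, BARD1, BLM, BRCA2 and UBE2T shared no exonic base with another gene.

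The promoters of the members were read for the E2F element, and any link to their levels was not tested. RefSeq windows on GRCh38.p14, from 250 bases before to 50 bases after a transcription start, were present for 31 of the 33 genes, with 44 windows in all. The forms TTTCCCGC, TTTGGCGC, TTTCGCGC and TTTGCCGC were searched on both strands. Of the 31 genes with a window, only 7 held any of these forms. At least 1 was found in 7 of the 44 windows (15.9%), against 3.31% of all 35116 windows. The windows of all genes were not matched to the members for G and C content. These sites lie in EXO1, FANCA, FANCC, FANCD2, MSH6, TOPBP1 and XRCC2 and are shown in the direction of transcription, 30 bases each, with the E2F form or its reverse complement in capitals. In EXO1 (chr1:241848197-241848226, plus strand) the element begins at base 5 after the start, in FANCD2 (chr3:10026424-10026453, plus) 2 bases before it, in MSH6 (chr2:47783137-47783166, plus) at base 4, in TOPBP1 (chr3:133661930-133661959, minus) 7 bases before it, and in XRCC2 (chr7:152676102-152676131, minus) at base 22. In FANCA (chr16:89816801-89816830, minus) it begins 172 bases before the start. One FANCC window holds a pair, at 172 bases (chr9:95317863-95317892, minus) and 46 bases (chr9:95317737-95317766, minus) before the start.
EXO1: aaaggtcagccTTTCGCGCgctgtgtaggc
FANCD2: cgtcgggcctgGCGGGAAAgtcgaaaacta
MSH6: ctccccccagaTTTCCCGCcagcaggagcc
TOPBP1: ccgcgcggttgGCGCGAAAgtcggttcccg
XRCC2: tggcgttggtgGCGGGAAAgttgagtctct
FANCA: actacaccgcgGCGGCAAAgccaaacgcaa
FANCC, distal: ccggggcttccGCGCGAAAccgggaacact
FANCC, proximal: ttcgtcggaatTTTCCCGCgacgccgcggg

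FANCE, which had the smallest p value for knockdown of ACAT1, had none of these forms in its window. The 200 bases before its start (chr6:35452138-35452337, plus strand) are shown because of that rank. They hold 4 GC boxes (GGGCGG, or CCGCCC as its reverse complement, in capitals) and are 74.5% G and C. The median over the same 200 bases was 64.8% in the 44 windows of the members and 59.0% in all windows. A GC box was found in 35 of the 44 windows of the members (79.5%) and in 45.0% of all windows, CCAAT in 38.6% and 34.6%, and the cell-cycle element TTTGAA or TTCGAA in 11.4% and 16.4%. These matches describe letters in a window and not binding.
FANCE: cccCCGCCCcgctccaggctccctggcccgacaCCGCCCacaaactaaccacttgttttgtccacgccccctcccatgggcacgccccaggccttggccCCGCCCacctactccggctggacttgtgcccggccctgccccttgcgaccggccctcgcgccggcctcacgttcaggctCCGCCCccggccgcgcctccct

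Knockdown of ACAT1 was examined first as the mean effect of both siRNAs in both lines. FANCE was called lower (adjusted p under 0.05 in edgeR's quasi-likelihood test, adjusted over all genes tested), and the other 32 members were not. The share of all genes called was 0.223%. The log2 fold change lay below 0 for 32 of the 33 members, against 50.2% of all genes, with a median of -0.23 against a median of all genes at 0.00 and a range from -0.70 for FANCE to 0.05 for FANCF. At an unadjusted p under 0.05, 7 members were lower and 0 higher, against 5.78% of all genes lower. Libraries of the same replicate number within a line deviated together. When that number was fitted as a block, 11 members were called lower, against 6.46% of all genes lower and 12.4% in either direction. These 11 were FANCE, FANCG, FANCD2, FANCI, USP1, BRCA1, BARD1, RAD54L, EXO1, BLM and EME1, and 0 members were called higher. Of the 11, only FANCD2 and EXO1 held an E2F form in their promoter windows, and FANCI had no window. DESeq2 without the block called FANCE and FANCG, against 1.77% of all genes.

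FANCE, the core complex subunit that contacts FANCD2, measured 4.45, 4.83 and 4.37 RPKM in UM-UC-3 siNC, 2.94, 3.11 and 2.37 with siACAT1-1 and 2.80, 3.57 and 4.04 with siACAT1-2. In T24 it measured 5.14, 3.53 and 4.61 RPKM with siNC, 1.97, 2.88 and 1.85 with siACAT1-1 and 3.09, 2.36 and 2.79 with siACAT1-2. Each of the 12 knockdown libraries lay below every siNC library of its own line. The mean effect was a log2 fold change of -0.70 ± 0.13 (SE, 18 libraries), a fold of 0.616, with an adjusted p of 0.0479 (0.000679 under the replicate block). This call was close to the threshold: it was kept in 3 of the 18 fits that left out 1 library and lost in 15, with an adjusted p of up to 0.199 without T24 siNC replicate 1, while the fold change kept its direction in all of them. The 3 libraries that could be left out with the call kept were T24 siNC replicate 2, T24 siACAT1-1 replicate 2 and T24 siACAT1-2 replicate 1.

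FANCG, a scaffold of the core complex, measured 9.35, 9.58 and 7.53 RPKM in UM-UC-3 siNC, 6.37, 7.29 and 4.81 with siACAT1-1 and 7.36, 6.68 and 4.94 with siACAT1-2. Both UM-UC-3 knockdown groups lay wholly below siNC. In T24 it measured 12.1, 6.31 and 9.92 RPKM with siNC, 6.84, 5.51 and 4.64 with siACAT1-1 and 7.32, 4.79 and 5.76 with siACAT1-2, where the low siNC library numbered 2 overlapped with the knockdown libraries. The mean log2 fold change was -0.61 ± 0.17, with an adjusted p of 0.162 without the block and 0.000145 with it. The 6 other core complex genes were not called in either model. With the block FANCA, FANCB, FANCC, FANCL and FANCM had log2 fold changes of -0.23, -0.25, -0.16, -0.03 and -0.085, and FANCF had 0.12. Their adjusted p values in that model ran from 0.0531 for FANCA to 0.852 for FANCL. FANCF measured 0.299, 0.263 and 0.683 RPKM in UM-UC-3 siNC and 0.953, 0.416 and 1.32 in T24 siNC, a wide spread between replicates of 1 group.

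The plot of 8 genes by library shows these values with those of the 6 genes that follow in order of p.

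**Figure D1:**
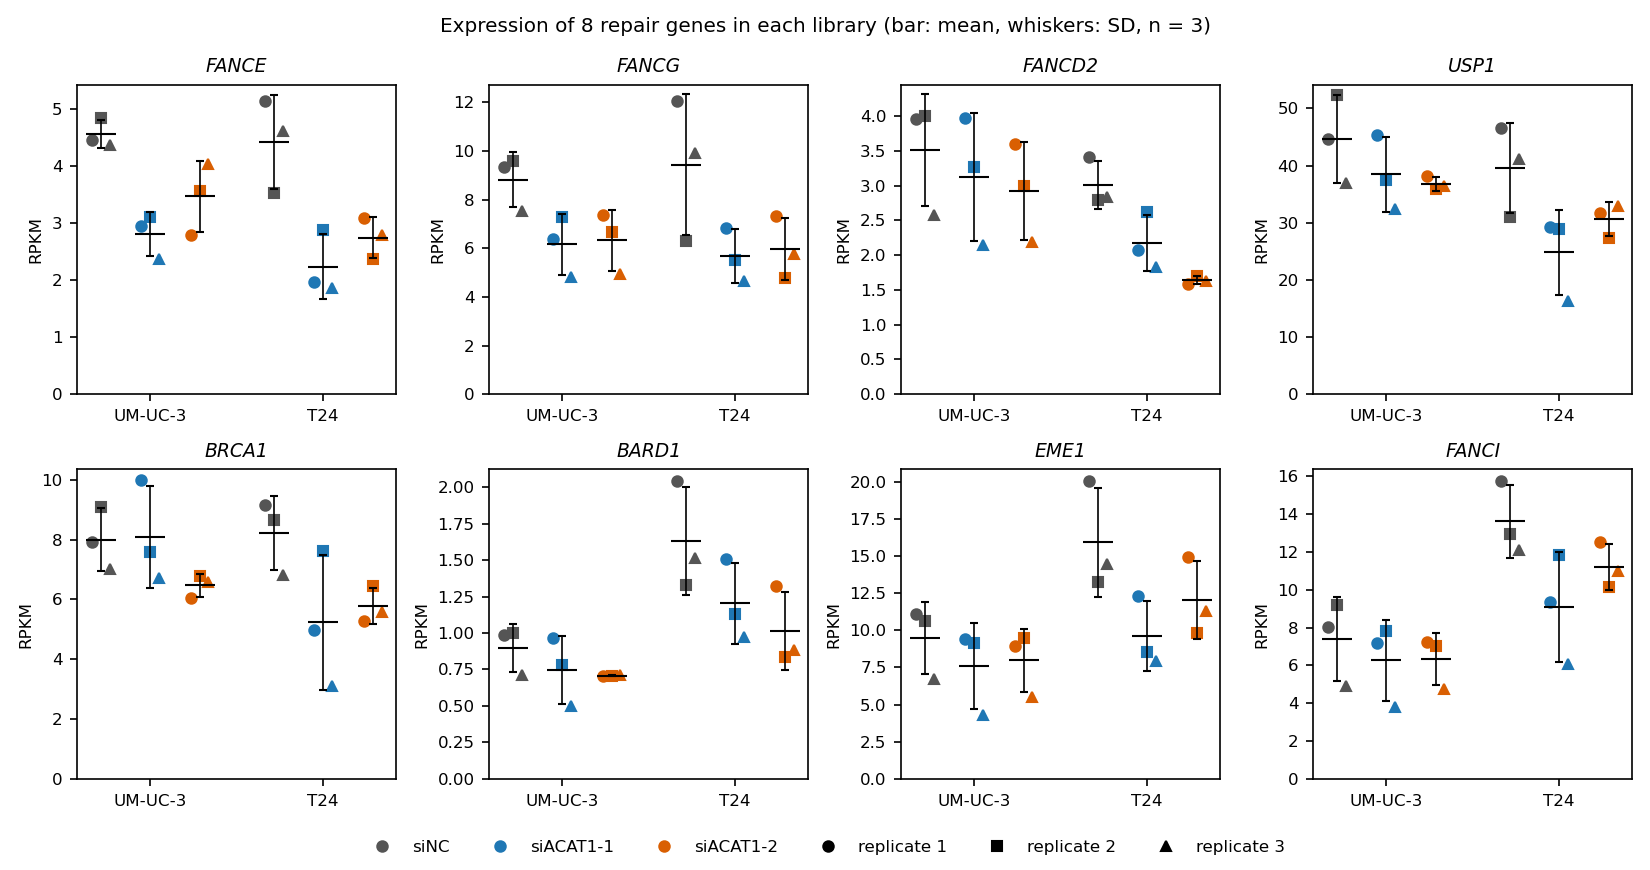
RPKM (vertical axes, from 0) of the 8 members with the smallest p for the mean knockdown effect, in each library of UM-UC-3 and T24, with colour for the siRNA, symbol for the replicate number, a bar for the mean and whiskers for the SD (n = 3). FANCE lies below siNC in all 12 knockdown libraries, and for EME1 and FANCI the UM-UC-3 libraries numbered 3 (triangles) are the lowest of each group.

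FANCD2, the substrate on which the pathway turns, measured 3.41, 2.80 and 2.84 RPKM in T24 siNC, 2.07, 2.62 and 1.83 with siACAT1-1 and 1.59, 1.70 and 1.63 with siACAT1-2, so that both T24 knockdown groups lay wholly below siNC. In UM-UC-3 it measured 3.96, 3.999 and 2.58 RPKM with siNC, 3.98, 3.27 and 2.15 with siACAT1-1 and 3.59, 3.00 and 2.18 with siACAT1-2, where the groups overlapped. The mean log2 fold change was -0.45 ± 0.15 (adjusted p of 0.275, and 0.000809 with the block). With siACAT1-2 in T24 the change was -0.86 ± 0.13 with the block (adjusted p of 0.000399). Its partner FANCI was at 15.8, 13.0 and 12.1 RPKM in T24 siNC and at 9.34, 11.8 and 6.08 RPKM with siACAT1-1, which did not overlap, and at 12.5, 10.1 and 11.01 RPKM with siACAT1-2, which did. In UM-UC-3, FANCI was at 8.03, 9.21 and 4.92 RPKM with siNC, at 7.16, 7.82 and 3.83 RPKM with siACAT1-1 and at 7.23, 7.03 and 4.77 RPKM with siACAT1-2. The mean log2 fold change of FANCI was -0.34 ± 0.18 (adjusted p of 0.541, and 0.0202 with the block).

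USP1, which reverses the ubiquitination of FANCD2, measured 46.6, 31.0 and 41.1 RPKM in T24 siNC, 29.2, 28.96 and 16.2 with siACAT1-1 and 31.7, 27.3 and 32.96 with siACAT1-2. In UM-UC-3 it measured 44.7, 52.4 and 37.0 RPKM with siNC, 45.4, 37.5 and 32.5 with siACAT1-1 and 38.1, 35.9 and 36.4 with siACAT1-2. Only siACAT1-1 in T24 lay wholly below its siNC. The mean log2 fold change was -0.39 ± 0.14 (adjusted p of 0.303, and 0.0152 with the block). UBE2T, the enzyme that attaches the ubiquitin, had a mean log2 fold change of -0.23 without the block and -0.25 with it (adjusted p of 0.698 and 0.0645). In T24 with siACAT1-1, all 4 genes of this step were called lower with the block, against 7.31% of all genes. Their log2 fold changes were -0.47 for FANCD2, -0.59 for FANCI, -0.61 for UBE2T and -0.67 for USP1. Without the block 0 of the 4 were called in this comparison, and the calls with it depended on single libraries, as given below.

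Among the BRCA and PALB2 genes, the BRCA1 and BARD1 pair, a ubiquitin ligase of the break site, was called lower in the mean effect with the block, and BRCA2, PALB2 and the BRIP1 helicase were not. BRCA1 measured 9.17, 8.65 and 6.83 RPKM in T24 siNC, 4.97, 7.61 and 3.12 with siACAT1-1 and 5.29, 6.45 and 5.59 with siACAT1-2. In UM-UC-3 it measured 7.91, 9.09 and 7.003 RPKM with siNC, 10, 7.58 and 6.71 with siACAT1-1 and 6.04, 6.79 and 6.59 with siACAT1-2. Thus siACAT1-2 lay wholly below siNC in both lines, and siACAT1-1 overlapped siNC in both. The mean log2 fold change of BRCA1 was -0.37 ± 0.14 (adjusted p of 0.355, and 0.0165 with the block). BARD1 measured 2.05, 1.33 and 1.52 RPKM in T24 siNC, 1.51, 1.13 and 0.969 with siACAT1-1 and 1.32, 0.837 and 0.882 with siACAT1-2. In UM-UC-3, BARD1 was at 0.987, 1.00 and 0.710 RPKM with siNC, at 0.964, 0.779 and 0.498 RPKM with siACAT1-1 and at 0.704, 0.707 and 0.711 RPKM with siACAT1-2. Its mean log2 fold change was -0.44 ± 0.18 (adjusted p of 0.366, and 0.0079 with the block). With the block BRCA2, PALB2 and BRIP1 had mean log2 fold changes of -0.27, -0.18 and -0.099, with adjusted p values of 0.134, 0.305 and 0.744.

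The strand exchange genes (RAD51AP1, RAD51C, RAD51D, XRCC2, XRCC3, RAD54L and RAD54B) had negative mean log2 fold changes in 7 of 7 cases, from -0.14 for XRCC3 to -0.46 for RAD54L, and RAD54L alone was called with the block (adjusted p of 0.0133). RAD54L, a motor protein that remodels chromatin during strand exchange, varied widely between replicates. It measured 4.41, 1.07 and 3.34 RPKM in T24 siNC and 4.78, 7.88 and 3.73 RPKM in UM-UC-3 siNC.

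Of the genes for end resection and the later steps, EXO1, BLM and EME1 were called lower in the mean effect with the block, and RBBP8 and POLQ were not. EME1, which forms a structure-specific nuclease with MUS81, measured 20.1, 13.2 and 14.5 RPKM in T24 siNC, 12.3, 8.55 and 7.96 with siACAT1-1 and 15.0, 9.82 and 11.3 with siACAT1-2. In UM-UC-3 it measured 11.1, 10.6 and 6.72 RPKM with siNC, 9.40, 9.13 and 4.27 with siACAT1-1 and 8.93, 9.48 and 5.55 with siACAT1-2. Within each replicate number EME1 was lower with either siRNA than with siNC, in 12 of 12 pairs with log2 differences from -0.81 to -0.20. Only siACAT1-1 in T24 lay wholly below its siNC, and the other 3 knockdown groups overlapped with siNC. The mean log2 fold change was -0.43 ± 0.20 (adjusted p of 0.449), and -0.44 ± 0.07 with the block (adjusted p of 0.000344). BLM, a helicase that dissolves crossed-over strands, and the exonuclease EXO1 had -0.40 and -0.31 with the block, with adjusted p values of 0.00666 and 0.0381. POLQ, the polymerase of a competing end-joining route, had -0.21 with the block (adjusted p of 0.174). MSH6 had -0.22 (0.0775), and the replication checkpoint genes ATR, TOPBP1 and CHEK1 had -0.16, -0.18 and -0.19, with adjusted p values of 0.205, 0.153 and 0.14.

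Each siRNA was then compared with siNC of its own line, in 4 comparisons. Without the block edgeR called 0 members in each, against 0.00993% of all genes for UM-UC-3 with siACAT1-1, 0.0546% for UM-UC-3 with siACAT1-2, 0.124% for T24 with siACAT1-1 and 0.268% for T24 with siACAT1-2. At an unadjusted p under 0.05, 1, 0, 6 and 4 members were lower in this order, against 2.47%, 1.83%, 6.09% and 4.16% of all genes, and 0 were higher. DESeq2 called 0, 0, 1 and 0 members, the 1 being FANCE, against 0.0894%, 0.195%, 2.48% and 1.63%. The median log2 fold changes of the 33 genes were -0.08, -0.27, -0.47 and -0.28, and the medians of all genes lay between -0.01 and 0.01. With the block, 1, 0, 16 and 5 members were called, all of them lower, against 1.1%, 0.72%, 7.31% and 3.93% of all genes called lower. The 1 member in UM-UC-3 was FANCG (log2 fold change of -0.53, adjusted p of 0.0433). This count of 1 was not stable: in 14 of the 18 fits that left out 1 library it became 0 or 2, and it was 0 without the 3 UM-UC-3 libraries numbered 3. Each of the UM-UC-3 siNC libraries, when left out, gave 0. The shares of all genes called in those fits are not given here.

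The 16 members called in T24 with siACAT1-1 under the block came from all steps of the pathway but the checkpoint and MSH6. FANCB, FANCC, FANCE and FANCG were called in the core complex, all 4 genes of the FANCD2 step, BRCA1 and BRCA2, RAD51AP1, RAD51C and RAD54B among the strand exchange genes, and EXO1, BLM and EME1. Their log2 fold changes ran from -0.47 for FANCD2 and RAD54B to -0.96 for FANCE. The number depended on single libraries, being 2 without T24 siACAT1-1 replicate 1 and 23 without T24 siACAT1-1 replicate 2. The 5 members called in T24 with siACAT1-2 were FANCD2, BARD1, FANCE, FANCG and EME1, with log2 fold changes of -0.86, -0.67, -0.67, -0.63 and -0.38. This count was 1 without T24 siNC replicate 1 and 8 without T24 siACAT1-1 replicate 2. Shares of all genes called in the fits that left out a library are not given here. These changes in count are therefore not read as particular to the members. Both siRNAs were compared with the same 3 siNC libraries of a line.

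**Figure D2:**
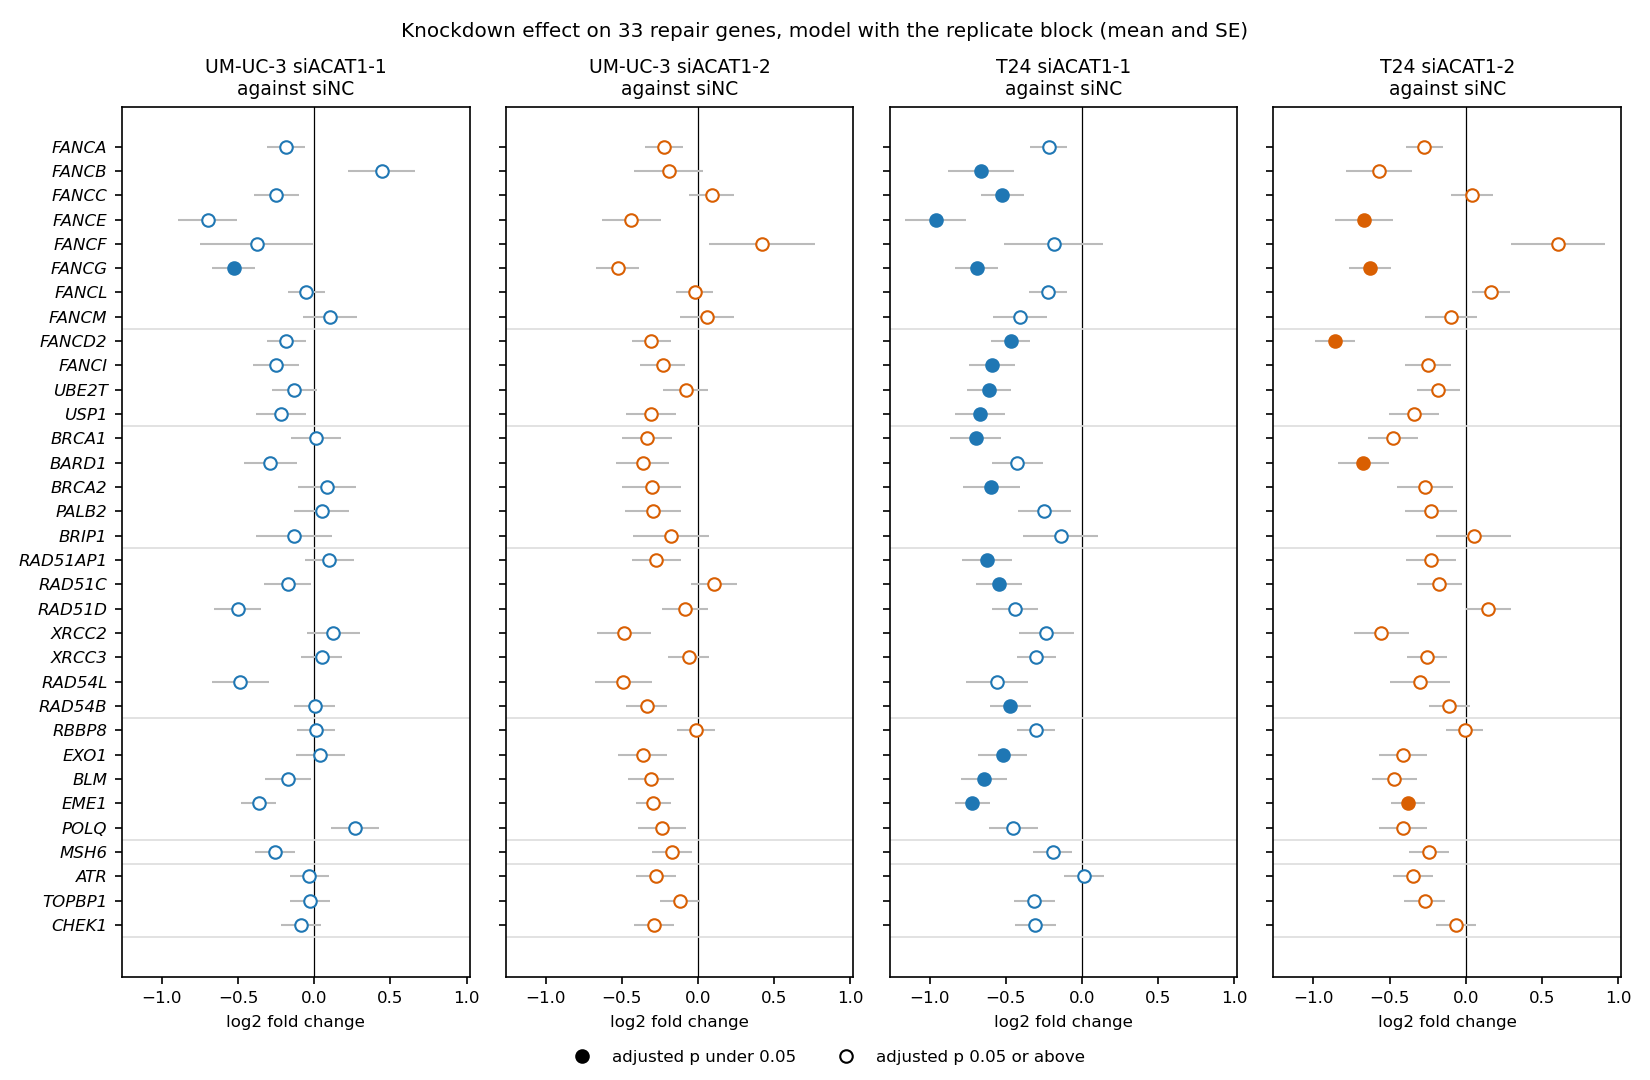
Log2 fold change with its SE (horizontal axes) of the 33 members, grouped by role from the core complex at the top to the checkpoint at the bottom, in the 4 comparisons of a siRNA with siNC, from the model with the replicate block. Filled points have an adjusted p under 0.05, which holds for 1, 0, 16 and 5 members from left to right, all on the negative side.

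The same comparisons by complete separation of the RPKM values gave 3 members lower for UM-UC-3 with siACAT1-1 (FANCE, FANCG and RAD51D) against 6.86% of all genes, and 3 for UM-UC-3 with siACAT1-2 (FANCE, FANCG and BRCA1) against 4.59%. For T24 with siACAT1-1 there were 10 against 7.21%, and for T24 with siACAT1-2 there were 6 against 6.27%. In none of the 4 did a member lie wholly above siNC, against 5.84%, 7.4%, 6.22% and 5.68% of all genes. Both siRNAs lay below siNC for FANCE and FANCG in UM-UC-3 (1.26% of all genes) and for FANCE and FANCD2 in T24 (1.67%), so FANCE was the member that separated in all 4 comparisons. Paired by replicate number, 8 members were lower in 12 of 12 pairs, namely FANCE, FANCG, FANCD2, FANCI, USP1, BARD1, BLM and EME1, against 1.91% of all genes. No member was higher in all 12, against 1.62%. The 12 pairs share 6 siNC libraries. FANCF and FANCM were lower in 5 of 12.

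The variance of the members was then split by siRNA and replicate number. Sums of squares were added over genes before the shares were taken, so genes that vary more weigh more. In UM-UC-3 the replicate number took 72.2% of the variance of the 33 genes, the siRNA 16.3% and the remainder 11.5%. For all genes these shares were 43.0%, 27.8% and 29.2%. In T24 the shares were 54.0%, 30% and 16.1%, against 51.7%, 26.2% and 22.2%. The replicate number took more than the siRNA in 27 of 33 members in UM-UC-3 and in 25 of 33 in T24. The same share over all genes is not given here, so these counts are not read as particular to the members. FANCE had 75.6% of its variance on the siRNA in UM-UC-3 and 72.0% in T24. FANCD2 had 12.2% in UM-UC-3 and 83.3% in T24.

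The UM-UC-3 libraries numbered 3 were the low ones. Against the mean of the 9 libraries of the line, the median of the 33 genes was -0.29 there with siNC, -0.45 with siACAT1-1 and -0.50 with siACAT1-2 on the log2 scale, and between 0.04 and 0.41 in the other 6 libraries. In T24 the highest was siNC replicate 1 at 0.60 and the lowest siACAT1-1 replicate 3 at -0.59. Markers of proliferation moved with these libraries. The median of 10 such markers was -0.44, -0.88 and -0.92 in the 3 UM-UC-3 libraries numbered 3, 0.94 in T24 siNC replicate 1 and -0.67 in T24 siACAT1-1 replicate 3. PCNA, the replication clamp, was at 8.03 to 11.5 RPKM in the UM-UC-3 libraries numbered 3 and at 16.9 to 45.3 RPKM in the other 6. The part of proliferation in the levels of the repair genes was not tested. In bulk samples fewer cells in S phase and less RNA per cell cannot be told apart. With these 3 libraries left out, the mean effect had 0 members called without the block and 7 with it. The share of all genes called with them left out is not given here.

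**Figure D3:**
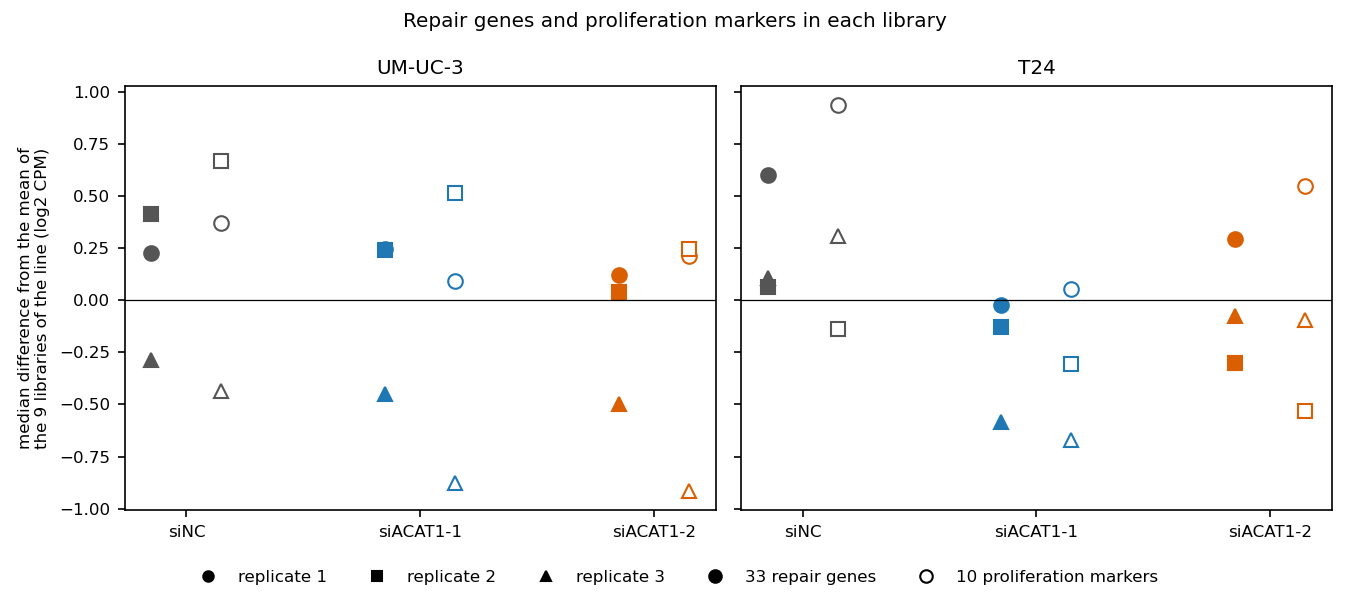
Median difference from the mean of the 9 libraries of a line (vertical axis, log2 CPM, counts scaled to the library total after TMM normalization) of the 33 repair genes (filled) and of 10 proliferation markers (open), in each library of UM-UC-3 (left) and T24 (right), with colour for the siRNA and symbol for the replicate number. The 3 UM-UC-3 libraries numbered 3 are below 0 for both lists, and T24 siNC replicate 1 is the highest for both, at 0.60 and 0.94.

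Pairs of libraries within a replicate number gave the size of the change without the differences between numbers. In T24 the median of the 33 genes was -0.62, -0.16 and -0.65 for siACAT1-1 against siNC in replicates 1, 2 and 3, with 32, 24 and 33 of 33 genes lower, and -0.38, -0.37 and -0.23 for siACAT1-2, with 28, 29 and 22 lower. In UM-UC-3 it was 0.03, -0.20 and -0.14 for siACAT1-1, with 16, 29 and 23 lower, and -0.13, -0.41 and -0.11 for siACAT1-2, with 24, 29 and 24 lower. Among all genes 45.1% to 50.9% were lower in these pairs, with medians between -0.011 and 0.006. The median of the members was negative in 11 of the 12 pairs, and UM-UC-3 siACAT1-1 replicate 1 was the exception.

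Genes around the set were described for comparison. Of 64 other genes of the same repair and checkpoint pathways, 48 had a mean log2 fold change below 0, with a median of -0.11, and 0 were called without the block. With the block 9 were called lower and 1 higher, against 6.46% and 5.95% of all genes. The lower ones included TIMELESS (-0.37, adjusted p of 0.000932), a protector of the replication fork, MRE11 (-0.22, 0.0286), a nuclease of broken ends, and ERCC1 (-0.28, 0.0227), which unhooks crosslinks with XPF. RAD9A (-0.32), PMS1 (-0.20) and FAN1 (-0.20) were not called, with adjusted p values of 0.0557, 0.155 and 0.0871 with the block. Of 16 genes of the MCM helicase and its licensing, 16 were below 0, with a median of -0.35, and 12 were called lower with the block. All 10 proliferation markers were below 0 (median of -0.43, 7 called lower with the block). The 10 end-joining genes, which act without a sister chromatid, had a median of -0.10 with 0 called with or without the block.

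No difference between the lines in the effect of the knockdown was detected for a member. Without the block 0 were called by edgeR, against 0.0% of all genes, 0 had an unadjusted p under 0.05 (2.57% of all genes) and DESeq2 called 0 (0.00497%). With the block 0 were called, against 0.104%, and 4 had an unadjusted p under 0.05, against 9.46%. The median difference, UM-UC-3 minus T24, was 0.21. Without the block the smallest p values were those of FANCD2 (0.43, unadjusted p of 0.173) and BRCA1 (0.41, 0.183). With it the 4 members were FANCB (0.74, 0.0119), FANCD2 (0.42, 0.0154), POLQ (0.45, 0.0311) and BRCA1 (0.42, 0.047). The median was 0.00025 without T24 siNC replicate 1 and 0.38 without T24 siNC replicate 2.

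The siRNAs were compared with each other over both lines. Without the block edgeR called 0 members between siACAT1-2 and siACAT1-1, against 2.56% of all genes, and 3 had an unadjusted p under 0.05, against 16.7%. DESeq2 called FANCC, against 7.3% of all genes. With the block 6 were called, against 20.6% of all genes. FANCC, RAD51D, FANCF and RAD51C were higher with siACAT1-2 (10.4% of all genes), and XRCC2 and ATR were lower (10.2%). FANCC measured 0.624, 0.567 and 0.580 RPKM with siACAT1-1 and 0.801, 0.790 and 0.711 with siACAT1-2 in UM-UC-3, and 1.04, 1.10 and 0.947 against 1.64, 1.36 and 1.55 in T24, without overlap in either line. In siNC it was at 0.738, 0.779 and 0.594 RPKM in UM-UC-3 and at 1.55, 1.52 and 1.41 RPKM in T24, so the siACAT1-2 libraries were close to siNC. The log2 difference of FANCC was 0.46 ± 0.12 (adjusted p of 0.0539, and 0.00345 with the block). RAD51D, which acts in strand exchange, measured 0.799, 0.724 and 0.475 RPKM with siACAT1-1 and 0.994, 0.839 and 0.865 with siACAT1-2 in UM-UC-3, and 0.945, 0.689 and 0.805 against 1.30, 0.883 and 1.53 in T24, where the groups overlapped. Its difference was 0.51 ± 0.18 (adjusted p of 0.142, and 0.00272 with the block). ACAT1 itself was lower with siACAT1-2 than with siACAT1-1, by a log2 difference of -0.62 (adjusted p of 0.034).

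The lines were compared in their siNC libraries, where 11 members were called, 1 higher and 10 lower in UM-UC-3 than in T24, against 44.3% of all genes called, 22.0% higher and 22.3% lower, so the total of 11 of 33 was not above the background. DESeq2 called 11 as well, against 46.8%. FANCC, RBBP8, PALB2, UBE2T, BRCA2, FANCA, XRCC3, RAD51C, BARD1 and FANCI were lower in UM-UC-3, and CHEK1 was higher. By complete separation 12 members were lower and 1 higher, against 27.3% and 25.9% of all genes. The median log2 difference was -0.34, against 0.03 for all genes. Its size depended on single libraries. It was -0.16 without UM-UC-3 siNC replicate 3 and -0.20 without T24 siNC replicate 1, and -0.51, -0.55 and -0.61 without T24 siNC replicate 2, UM-UC-3 siNC replicate 2 and T24 siNC replicate 3.

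CHEK1, the effector kinase of the ATR checkpoint, measured 11.7, 13.1 and 8.52 RPKM in UM-UC-3 siNC and 5.57, 4.97 and 4.93 RPKM in T24 siNC, a log2 difference of 1.15 ± 0.24 (adjusted p of 0.000835). RBBP8, which starts the resection of broken ends, measured 11.6, 11.8 and 9.55 RPKM against 24.6, 28.7 and 20.4 RPKM, a difference of -1.11 ± 0.21 (adjusted p of 0.000336). These were opposite in sign. FANCC, with the values given above, differed by -1.04 ± 0.17 (adjusted p of 0.000124). PALB2, the bridge between BRCA1 and BRCA2, measured 2.20, 1.71 and 1.53 RPKM against 3.35, 5.56 and 3.85 RPKM, a difference of -1.17 ± 0.31 (adjusted p of 0.00587). BRCA2 measured 1.02, 0.993 and 0.594 RPKM against 1.86, 2.24 and 1.35 RPKM, a difference of -1.01 ± 0.32 (adjusted p of 0.0176). UBE2T measured 26.4, 26.7 and 18.5 RPKM against 57.0, 46.5 and 45.7 RPKM, a difference of -1.02 ± 0.30 (adjusted p of 0.0106). All 6 had no overlap between the lines. They were named because they had the smallest p values of the members in this comparison, so the separation is no further support. Without UM-UC-3 siNC replicate 3 the count of called members fell to 5, and without UM-UC-3 siNC replicate 1 it was 7. For these fits the share of all genes called is not given here. FANCE, FANCG and BRCA1 were at similar levels in both lines, with log2 differences of 0.08 ± 0.22, -0.07 ± 0.28 and 0.00 ± 0.24.

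**Figure D4:**
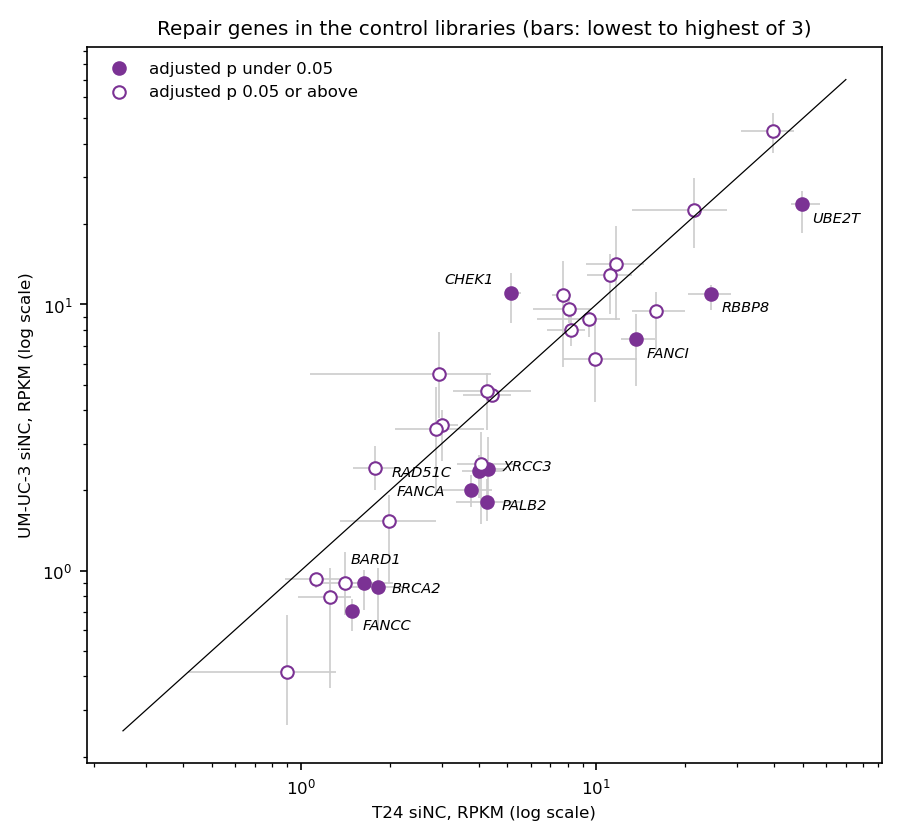
Mean RPKM of the 33 members in UM-UC-3 siNC (vertical axis, log scale) against T24 siNC (horizontal axis, log scale), with bars from the lowest to the highest of 3 libraries and a line of equality. Filled, named points have an adjusted p under 0.05, and CHEK1 is the 1 above the line while 10 lie below it.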

How the data were processed

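RNA was sequenced from 18 libraries of stranded mRNA in 6 groups. Per the labels and the paper's methods, the authors used Trimmomatic 0.36 for trimming, STAR 2.5.3 for mapping to GRCh38 and featureCounts (Subread 1.5.1) for counting on genes, and deposited raw counts. They also deposited RPKM, calculated from the counts, the gene length and the total of counted reads. The annotation release, strand setting, treatment of multi-mapped reads and use of the 8-base molecular identifiers are not given in the sources used here. Every column matched 1 library.

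The test was the quasi-likelihood F test of edgeR 4.0.16 in R 4.3.3 (filterByExpr by group, TMM), in 1 model of 6 group coefficients over all 18 libraries, with Benjamini-Hochberg adjustment within each contrast over 20144 genes and a threshold of 0.05. Alternatives were the replicate number within a line as a block, DESeq2 1.42.0 and its size factors, no filter on low counts, each line alone, each library left out, and limma 3.58.1 on log2(RPKM + 0.1) and log2(RPKM + 1). Leaving out libraries under the block, or all 3 UM-UC-3 libraries numbered 3 or all 3 T24 libraries numbered 2, was added after seeing the data. The code was tested on simulated counts that held no effect of replicate number or line. That test therefore cannot show how the model with the block handles such effects in these data.

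The labels do not say what a replicate number marks. Within a line, each pair of libraries with the same number had deviations from its groups' averages that correlated over genes, which do not count as replicates (r of 0.115 to 0.576 in UM-UC-3 and 0.356 to 0.686 in T24), so the pairing was taken from the data. If the libraries of a group are not separate cultures, the p values measure technical spread.

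The members and lists were chosen with earlier results of these data known. Values per library were given in all groups for the 8 members with the smallest p for the mean knockdown effect. For the 6 members for the lines they were given at least in siNC. They were also given for the 2 members for each difference of effects and for the highest and the lowest in level. Of these, RAD51D was given in the knockdown libraries only and FANCF in siNC only. Of the other pathway genes the 6 with the smallest p were named. The siNC values of RAD54L were added after they were seen. Other values are given by role group. Variance shares are sums of squares of log2 CPM (prior count of 2) on siRNA, replicate number and remainder within a line. Promoters are RefSeq windows on GRCh38.p14. Gene positions for overlaps came from the exon coordinates deposited with the counts.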

Additional observations from a re-analysis of the deposited data

How the results depend on the processing

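With the replicate block the members called changed from 0 to 1 for UM-UC-3 with siACAT1-1, from 0 to 16 and 5 for T24 with siACAT1-1 and siACAT1-2, from 1 to 11 for the mean effect and from 0 to 6 between the siRNAs. No block could be fitted between the lines, since the numbers are nested in them. Without the filter on low counts the counts were 1 for T24 with siACAT1-1, 2 for the mean effect and 1 between the siRNAs. DESeq2 gave the same 3 numbers. Between the lines the count was 16 without the filter and 11 with DESeq2. With limma they were 0 for the mean effect at either pseudocount, and 1 between the siRNAs at log2(RPKM + 1). Without the 3 T24 libraries numbered 2 they were 2 for T24 with siACAT1-1, the mean effect and the siRNAs alike, and with the block as well 2, 1, 23 and 5 in the 4 comparisons, 14 for the mean effect and 10 for the siRNAs. Without the 3 UM-UC-3 libraries numbered 3 the mean effect had 0, and with the block as well UM-UC-3 had 0 with either siRNA, T24 14 and 5, the mean effect 7 and the siRNAs 4. Between the lines, without the block, 8 were called without these UM-UC-3 libraries and 12 without the T24 libraries numbered 2. Beyond those printed above, the shares of all genes called in the fits of this section are not given here. The changes in count are therefore not read as particular to the members. The cause was not tested.

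Leaving out 1 library gave 0 to 2 members for T24 with siACAT1-1 and for the mean effect, 0 to 1 between the siRNAs and 5 to 11 between the lines. With the block it gave 0 to 2 and 0 to 1 for UM-UC-3 with siACAT1-1 and siACAT1-2, 2 to 23 and 1 to 8 for T24, and 6 to 18 for the mean effect (6 without T24 siNC replicate 1 and 18 without T24 siACAT1-1 replicate 2). The median of the members ranged from -0.25 (without UM-UC-3 siNC replicate 3) to 0.084 (without UM-UC-3 siACAT1-1 replicate 3) for UM-UC-3 with siACAT1-1, from -0.47 to -0.051 with siACAT1-2 there, from -0.61 (without T24 siNC replicate 2) to -0.26 (without T24 siNC replicate 1) for T24 with siACAT1-1, from -0.45 to -0.081 with siACAT1-2 there, from -0.33 to -0.15 (without T24 siNC replicate 1) for the mean effect, from -0.61 to -0.16 between the lines, and from 0.00025 to 0.38 for the difference in effect between the lines. FANCE lost its call in 18 of 28 alternatives, limma included (adjusted p of 0.0574 and 0.0501). UBE2T and BRCA2 lost theirs between the lines without UM-UC-3 siNC replicate 3 (0.0538 and 0.0854). Of the values of named genes under alternatives, 588 kept their side of the threshold, 45 passed it, 21 fell short and 0 reversed. Depth limited FANCB and FANCF most, with as few as 27 and 28 reads in a library.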
